A study of Mus musculus with 60 samples.

Results

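The 12 arrays described here were hybridised with RNA of Balb/c 3T3, a fibroblast line started from embryos of that mouse strain and grown as a contact-inhibited monolayer. They follow the aromatic amine derivative 2-acetylaminofluorene (AAF, spelled 2-Acetylaminoflourene in the labels) at 10 µM for 24 h and for 120 h. Each treated group held 3 arrays and was set against 3 arrays of cells kept in 0.75% DMSO alone for the same time. These are 12 of 60 arrays in the series. They were chosen by their labels, not by any measured value. The concentration belongs to the study's second approach, in which chemicals were given at the concentration found to inhibit by 20% (IC20), and whose 30 arrays in 10 groups were normalised together. Of its other treatments, 3-methylcholanthrene (MCA, 3-methycholanthrene in the labels) and 2,4-diaminotoluene (DAT) are compared with AAF here. MCA was given at 20 µM for 24 h and 0.1 µM for 120 h, and DAT at 0.2 µM for 120 h. Benzo(a)pyrene at 1.5 µM for 24 h and 0.1 µM for 120 h, and DAT at 700 µM for 24 h, complete the 10 groups. Their arrays entered the normalisation, the filter on low values and the spread used by the tests. All groups are 1 cell line with no deletion or transgene named. Cells were seeded at 200 per dish and treated at 60 to 65% confluence. The labels do not say whether replicates were separate cultures, so p-values measure only the spread between arrays. Unless stated otherwise, that spread, and with it each standard error (SE), was pooled over the 30 arrays of the approach, not taken from the groups compared alone.

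AAF is a liver and bladder carcinogen that becomes reactive only after enzymes of the cell oxidise its nitrogen, chiefly the P450 enzyme CYP1A2, and further enzymes conjugate the product. Flat aromatic molecules can bind the aryl hydrocarbon (Ah) receptor, a transcription factor that pairs with Arnt and switches on Cyp1a1, Cyp1b1, Nqo1, Tiparp and other genes through a short DNA element with the core GCGTG. Fibroblasts in a filling dish leave the cell cycle, and dividing cells express genes of DNA replication and mitosis in waves, the latter often through a promoter element with the letters TTTGAA. Many interferon-stimulated genes carry a pair of GAAA repeats, parted by a couple of bases, in their promoters.

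The promoter stretches below belong to genes on which the results turn. They are RefSeq sequence of build GRCm38.p6, each 100 bases long, 5′ to 3′ on the gene's strand and upstream of the gene start listed there. Capitals mark a match on either strand to GCGTG in the genes that rose, to the GAAA pair (GAAA, any 2 bases, GAAA) in genes of the interferon type that fell, and to TTTGAA in cell division genes that fell.
Cyp1a1, chr9:57697511-57697610, plus strand: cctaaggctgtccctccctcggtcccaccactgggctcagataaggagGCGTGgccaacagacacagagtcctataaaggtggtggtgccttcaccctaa
Cyp1b1, chr17:79715086-79715185, minus strand: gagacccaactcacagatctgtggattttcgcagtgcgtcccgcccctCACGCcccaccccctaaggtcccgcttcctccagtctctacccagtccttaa
Ptgs2, chr1:150099885-150099984, plus strand: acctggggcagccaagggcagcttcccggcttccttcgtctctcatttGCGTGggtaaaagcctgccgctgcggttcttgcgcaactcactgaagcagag
Rsad2, chr12:26456518-26456617, minus strand: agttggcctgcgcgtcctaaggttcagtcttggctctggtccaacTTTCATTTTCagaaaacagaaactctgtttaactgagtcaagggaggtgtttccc
Oas1a, chr5:120907526-120907625, minus strand: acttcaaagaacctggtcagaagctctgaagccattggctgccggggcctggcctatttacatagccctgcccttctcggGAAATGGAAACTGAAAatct
Slfn8, chr11:83020811-83020910, minus strand: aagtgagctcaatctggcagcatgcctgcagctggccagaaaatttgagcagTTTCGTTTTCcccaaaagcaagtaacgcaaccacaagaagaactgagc
Top2a, chr11:99024190-99024289, minus strand: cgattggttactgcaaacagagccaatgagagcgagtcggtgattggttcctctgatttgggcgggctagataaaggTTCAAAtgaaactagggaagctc
Arhgap11a, chr2:113848708-113848807, minus strand: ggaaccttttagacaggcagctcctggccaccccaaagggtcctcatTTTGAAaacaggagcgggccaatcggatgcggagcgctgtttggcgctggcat
The Oas1a stretch holds 2 overlapping matches. A match is a description of letters, not of a bound site.

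The values were deposited as 1 intensity for each of 45101 probe sets on each array. They were used as log2(intensity + 16), quantile normalised over the 30 arrays, and 11384 genes were tested out of 18194 with a probe set of their own, each through its brightest probe set. A difference on this scale understates the change of a dim gene. Arrays of a group correlated with each other at 0.972 to 0.980 over genes, and the median intensity of an array lay between 58.8 and 98.9. Vim and Col1a2, fibroblast markers, were among the brightest genes of the array, and all 12 fibroblast markers of a fixed list passed the filter on low values. Within that list Lum and Fap were dim, at percentiles 56.0 and 42.1 of level. Of markers of other cells, 3 of 12 epithelial, 1 of 10 endothelial and 5 of 12 macrophage and leukocyte genes passed it. So did 8 of 15 adipocyte and 14 of 19 contractile smooth muscle genes. Among the latter, Acta2 and Cald1 stood at percentiles 98.8 and 99.6.

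At 24 h, AAF raised Cyp1a1 and Cyp1b1, and no other gene passed the threshold of 0.05 on the adjusted p. Cyp1a1 and Cyp1b1 encode P450 enzymes that oxidise aromatic hydrocarbons. These 2 genes are 0.0176% of the genes tested. The test was limma's moderated test over the 10 group means, two-sided, with Benjamini-Hochberg adjustment over all genes tested, and each adjusted p below comes from it unless the replicate block is named.

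The deposited intensity of Cyp1a1 was 96.0, 119 and 122 on the DMSO arrays of 24 h and 1467, 1079 and 1398 with AAF. At 120 h it was 37.3, 48.3 and 57.8 with DMSO and 915, 643 and 936 with AAF. Every treated array was far above every control array at both times, although the DMSO level itself was lower at 120 h. The log2 difference was 3.12 ± 0.17 (SE, 3 arrays against 3; 8.69-fold, adjusted p = 5.62e-12) at 24 h. It was 3.82 ± 0.17 (14.1-fold, adjusted p = 4.53e-14) at 120 h.

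Cyp1b1 was bright in untreated fibroblasts, with intensities of 4796, 4680 and 4350 at 24 h, and AAF brought it to 9691, 8360 and 7824. At 120 h the DMSO arrays stood at 5823, 6152 and 5349 and the AAF arrays at 11205, 11960 and 10356. The groups did not overlap at either time. The log2 differences were 0.89 ± 0.08 (SE; adjusted p = 1.80e-07) and 0.95 ± 0.08 (adjusted p = 5.25e-08). With each array only centred on its median, the 24 h difference of Cyp1b1 did not pass (adjusted p = 0.162).

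The remaining members of the Ah receptor battery moved less. Of its 9 genes, 7 had a probe set and 5 passed the filter, and the median log2 difference of the 5 was 0.56 at 24 h and 0.32 at 120 h, beside 0.00043 and 0.0069 over all genes tested. Nqo1, a quinone reductase, had intensities of 702, 756 and 678 with DMSO and 1153, 1070 and 1035 with AAF at 24 h. Its difference of 0.55 ± 0.12 (SE) was in the same direction on all arrays but did not pass (adjusted p = 0.177). At 120 h its groups overlapped, with a difference of 0.09 ± 0.12. Tiparp, an ADP-ribosyltransferase that restrains the receptor, differed by 0.56 ± 0.14 at 24 h and 0.32 ± 0.14 at 120 h. Aldh3a1, an aldehyde dehydrogenase, differed by -0.18 and 0.16. Ahr itself, at -0.04 and -0.05, and its partner Arnt, at 0.02 and -0.14, had differences below their standard errors.

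Same-numbered AAF and DMSO arrays deviated together, so the fit was also made with the replicate number as a block. At 24 h it called 11 genes (0.0966% of those tested), 10 higher and 1 lower with AAF, among them Cyp1a1 and Cyp1b1. In that fit the other higher genes were Ier3, Gpc1, Nfe2l2, Phlda1, Ptx3, Tnrc18, Tiparp and Nqo1, with adjusted p between 1.15e-08 and 0.0183, and Med18 was lower (adjusted p = 0.0203). Nfe2l2 encodes Nrf2, the transcription factor of the oxidative stress response, and its log2 difference was 0.39 ± 0.10. Ier3, an early response gene linked to cell survival, differed by 0.77 ± 0.15, and Ptx3, a secreted pentraxin of inflammation, by 0.48 ± 0.11. Phlda1 (0.57) and Tnrc18 (0.57) are named because they are among those 11, after their values were seen.

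Large 24 h differences of dim genes did not pass. Without the block, the largest separated differences at an unadjusted p under 0.001 were 1.52 for 2310069B03Rik and 0.90 for Tcf15 among the higher, and -2.20 for Med18, -1.20 for Septin3 and -0.86 for Kif5c among the lower. The 3 other, dimmer probe sets of Kif5c were higher with AAF (0.10, 0.31 and 0.49), and the mean over its probe sets gave 0.0093. Med18, a subunit of the Mediator complex, gave 347, 538 and 327 with DMSO and 36.7, 79.9 and 128 with AAF. At 120 h its groups overlapped and the difference was -0.01 ± 0.55. AAF and DMSO arrays of 24 h did not overlap for 5.15% of all genes tested.

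**Figure D1:**
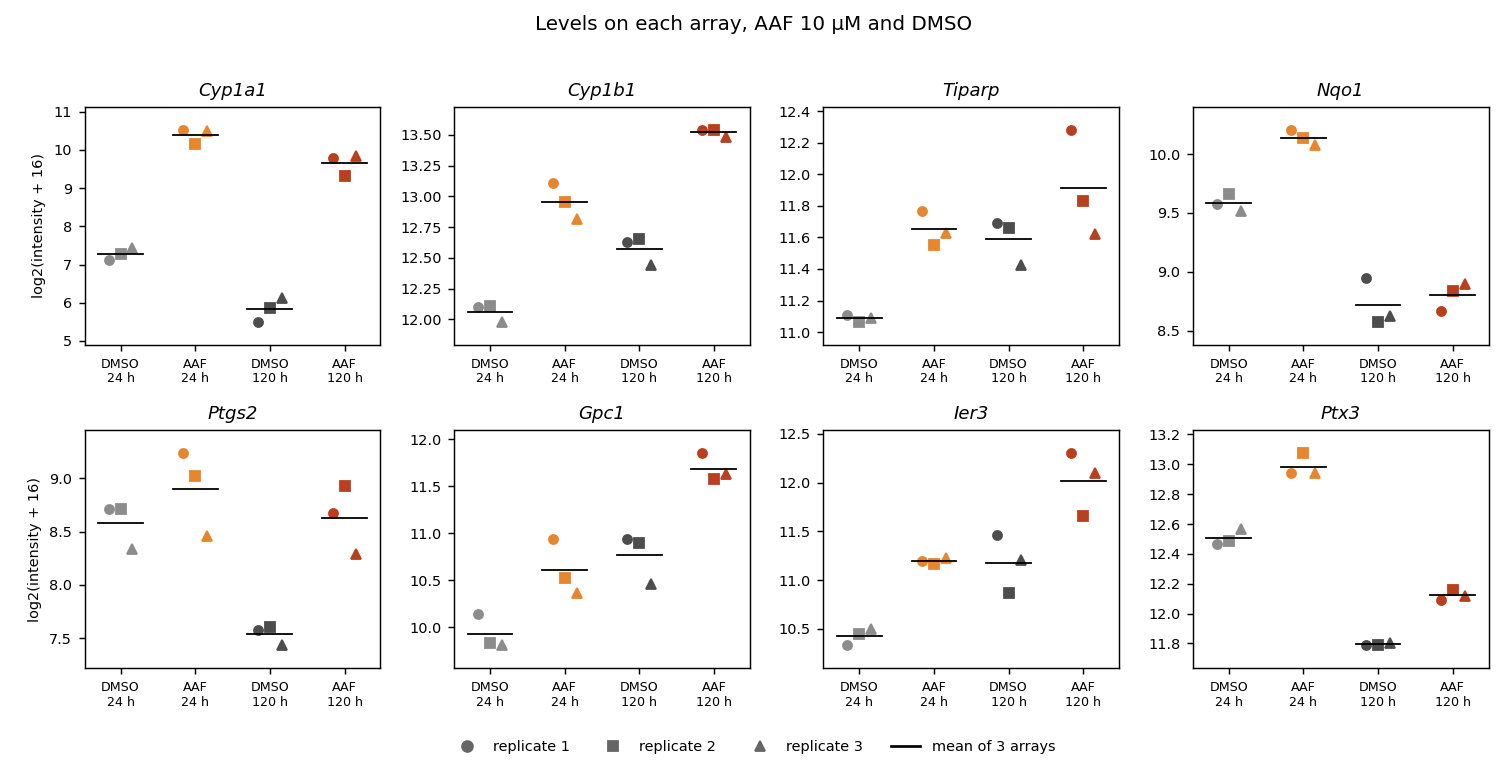
Normalised level, log2(intensity + 16), on each of 12 arrays for 8 genes: 4 groups on the x axis, 1 symbol per replicate number, a bar for the mean of 3 arrays. Cyp1a1 and Cyp1b1 are separated at both times, with log2 differences of 3.12 and 0.89 at 24 h and 3.82 and 0.95 at 120 h. Nqo1 is separated at 24 h alone, and Ptgs2 at 120 h alone.

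At 120 h, AAF changed 70 genes, 0.615% of those tested. The 22 that rose (0.193%) were led by Cyp1a1, Ptgs2, Cyp1b1, Adam23 and Gpc1. The 48 that fell (0.422%) included 5 genes of the mitosis list, 3 of the replication list, 3 of the DNA repair list and 4 of the interferon list described below. Changes were small: 2 genes rose and 5 fell by at least 2-fold. AAF and DMSO arrays did not overlap for 69 of the 70 (Cenpk was the exception), where 12.8% of all genes tested did not overlap (AAF above for 7.48% and below for 5.32%).

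The number of genes called at 120 h leaned on single arrays. It was 8 without AAF replicate 1, 9 without DMSO replicate 3, 22 without DMSO replicate 2 and 110 without DMSO replicate 1. It was 11 in a fit of the 12 arrays alone and 3 with each array only centred on its median. With the replicate block it was 1154 (10.1% of genes tested), 588 higher (5.17%) and 566 lower (4.97%), and all 70 genes were among them. The 70 kept their direction under every alternative in which they had a value. Cyp1a1, Cyp1b1, Rsad2, Usp17la, Mcm3, Fchsd2, Slc39a13 and Cks1b stayed past the threshold whichever of the 6 arrays was left out.

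Ptgs2, the inducible cyclooxygenase that starts prostaglandin synthesis, had intensities of 227, 211 and 174 with DMSO and 451, 500 and 324 with AAF at 120 h. The AAF arrays were all above the controls, and its log2 difference was 1.09 ± 0.24 (SE, 2.13-fold, adjusted p = 0.0271). At 24 h its groups overlapped (0.32 ± 0.24). Gpc1, a cell surface heparan sulfate proteoglycan, rose from 1879, 1859 and 1388 to 3389, 2915 and 3086 (0.92 ± 0.19, adjusted p = 0.0211). Ier3 rose from 2648, 1820 and 2332 to 4547, 3073 and 4218 (0.84 ± 0.15, adjusted p = 0.00906). On both genes, the 24 h groups were separated in the same direction.

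Several genes rose at 120 h with little difference at 24 h. Slc39a13, a zinc transporter of the secretory pathway, went from 697, 784 and 678 to 1238, 1119 and 1200 (log2 difference 0.74 ± 0.11, adjusted p = 0.000447), beside 0.16 ± 0.11 at 24 h. Fchsd2, a regulator of membrane trafficking and actin, went from 712, 718 and 719 to 1142, 1157 and 1058 (0.66 ± 0.09, adjusted p = 0.000382), beside -0.05 ± 0.09. These arrays were tightly grouped at 120 h and did not overlap. With DAT at 0.2 µM for 120 h, Slc39a13 was at 1041, 990 and 1000. AAF minus DAT was 0.23 ± 0.11 for Slc39a13, which did not pass, and 0.46 ± 0.09 for Fchsd2, which did.

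The other large rises ranged from 0.47 to 0.92 on the log2 scale. They were Adam23 (0.92), a disintegrin-type membrane protein without protease activity, Asic1 (0.90), an acid-sensing ion channel, and Cytip (0.87), a regulator of cell adhesion in leukocytes. Pxylp1 (0.74), a phosphatase of proteoglycan synthesis, Itprid2 (0.65), Flot1 (0.61), a scaffold of membrane rafts, Htra1 (0.52), a secreted serine protease, and Zfp532 (0.47) followed. A second probe set of Pxylp1 at a like level gave 0.28, so its size depended on the probe set. Cytip was dim, at 52.2, 37.0 and 27.0 with DMSO and 89.8, 90.3 and 74.0 with AAF. Dimmer probe sets of Cytip gave -0.05 and 0.63, and it passed in 1 of 6 fits that left out an array. For Cytip, AAF minus DAT was 0.27 ± 0.19, which did not pass.

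**Figure D2:**
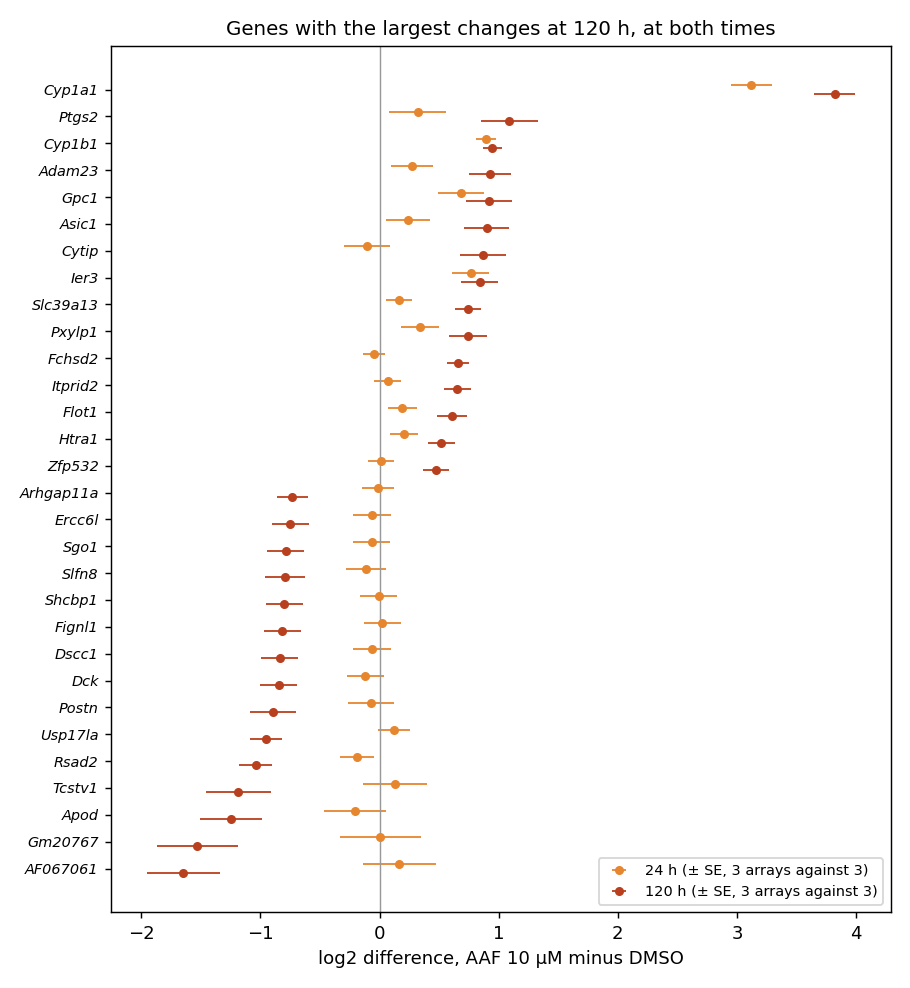
Log2 difference of AAF 10 µM minus DMSO at 24 h and 120 h for the 15 genes with the largest rises and the 15 with the largest falls at 120 h; points are differences of 3 arrays against 3 and bars are standard errors. Of the 15 genes that rose, all but Cytip and Fchsd2 lie right of 0 at both times, with Cyp1a1, Cyp1b1, Ier3 and Gpc1 furthest right at 24 h. The genes that fell at 120 h, from Arhgap11a (-0.73) to AF067061 (-1.65), lie within 0.21 of 0 at 24 h.

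Genes of mitosis were lower with AAF at 120 h. Of 44 tested members of a list of mitotic regulators, 43 were lower than DMSO, beside 48.3% of all genes tested, and the median log2 difference was -0.40, beside 0.0069. The test was passed by 5 of the 44, all lower, beside 0.422% of all genes tested: Spc25, Cenpe, Bub1, Tpx2 and Top2a. With the block 33 passed, all lower, beside 4.97% of all genes tested. AAF arrays lay entirely below DMSO arrays for 12 of the 44, beside 5.32% of all genes. At 24 h none of the list passed in either fit and the median was -0.04.

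Bub1, a kinase of the spindle checkpoint, had intensities of 2823, 3229 and 3066 with DMSO at 24 h and 632, 782 and 944 at 120 h. AAF left 500, 515 and 546 at 120 h, each below the lowest control. Its log2 difference was -0.62 ± 0.12 (SE, adjusted p = 0.00935), beside -0.08 ± 0.12 at 24 h. Cenpe, a kinetochore motor, was at 742, 785 and 953 with DMSO and 504, 576 and 585 with AAF (-0.62 ± 0.12, adjusted p = 0.00906). Top2a, the topoisomerase that untangles chromosomes, was at 2930, 2805 and 3523 with DMSO and 2482, 2424 and 2569 with AAF (-0.32 ± 0.07, adjusted p = 0.0288). Thus the controls themselves stood far lower at 120 h than at 24 h for each of the 3 genes, and the AAF arrays lower again.

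Spc25 (-0.70 ± 0.13), a part of the Ndc80 kinetochore complex, and Tpx2 (-0.62 ± 0.15), a spindle assembly factor, were the other list members that fell. Dimmer probe sets of Tpx2 gave -0.19, -0.06 and -0.15, and the dimmer probe set of Spc25 gave 0.34. Beyond the list, Sgo1 (-0.79), which guards sister chromatid cohesion, Ercc6l (-0.75), a translocase at centromeres, Arhgap11a (-0.73) and Shcbp1 (-0.80) fell by a like amount. Members that did not pass without the block included Ndc80 (-0.64 ± 0.18), Birc5 (-0.60 ± 0.16), Aurkb (-0.54 ± 0.16) and Mki67 (-0.43 ± 0.13). Foxm1, a transcription factor of mitotic genes, gave -0.06.

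DNA replication genes were lower by a like amount. Of 40 tested members of the list of replication and nucleotide supply, 39 were lower at 120 h, beside 48.3% of all genes tested. The median log2 difference was -0.29. Mcm3, Mcm5 and Mcm10 passed the test as lower, beside 0.422% of all genes tested. With the block 25 passed, all lower, beside 4.97% of all genes tested. Mcm3, a subunit of the replicative helicase, was at 1872, 2090 and 2358 with DMSO and 1404, 1431 and 1618 with AAF, with no overlap (-0.54 ± 0.08, adjusted p = 0.000432). At 24 h the same gene was at 8399, 7581 and 8292 with DMSO and 7998, 7641 and 8002 with AAF. Cdc6 (-0.76), Ccne2 (-0.73), Pola1 (-0.66) and Rrm2 (-0.58) had larger differences but did not pass without the block, and Tyms (0.02) was the 1 member not lower.

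Outside the list, Dck (-0.85 ± 0.16), which phosphorylates deoxynucleosides for salvage, Dscc1 (-0.84 ± 0.16), a loader of the replication clamp, and Fignl1 (-0.81 ± 0.15), which acts in recombination, were among the largest falls. Dimmer probe sets of Dck gave -0.57 and -0.16, and the dimmer probe set of Fignl1 gave 0.21. Clspn (-0.57), the checkpoint adaptor Claspin, and Dtl (-0.62), which marks Cdt1 for destruction, fell too. Of 42 tested genes of DNA repair and checkpoint, 3 fell, beside 0.422% of all genes tested. Among them were Rad51ap1 (-0.57) and Rad54l (-0.61), both of homologous recombination. Dimmer probe sets of Rad54l gave 0.17, -0.34 and 0.02. The median of the 42 was -0.05, and 59.5% of them were lower, beside 48.3% of all genes tested. With the block 5 were lower and 1 higher, beside 4.97% and 5.17% of all genes tested. Chek1 (-0.59) passed with the block alone.

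The direction of the mitosis and replication medians held under every alternative, between -0.55 and -0.25 and between -0.38 and -0.20. With median centring, and with the mean of a gene's probe sets, none of either list passed. The 12 arrays alone gave 0 calls in the mitosis list and 1 in the replication list. The mitosis list had 0 calls without AAF replicate 1 or DMSO replicate 3, 3 without AAF replicate 2 or DMSO replicate 2, 11 without AAF replicate 3 and 16 without DMSO replicate 1. The replication list had 1 call without AAF replicate 1 or 2 or DMSO replicate 2 or 3, 9 without AAF replicate 3 and 11 without DMSO replicate 1. In RNA of a culture, fewer dividing cells and less RNA of these genes per cell cannot be told apart. The log2 ratio of 3′ to 5′ beta-actin probe sets was 0.62 ± 0.20 (SD, n = 3) with AAF and 0.54 ± 0.12 with DMSO at 120 h, and its part in the result was not tested.

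**Figure D3:**
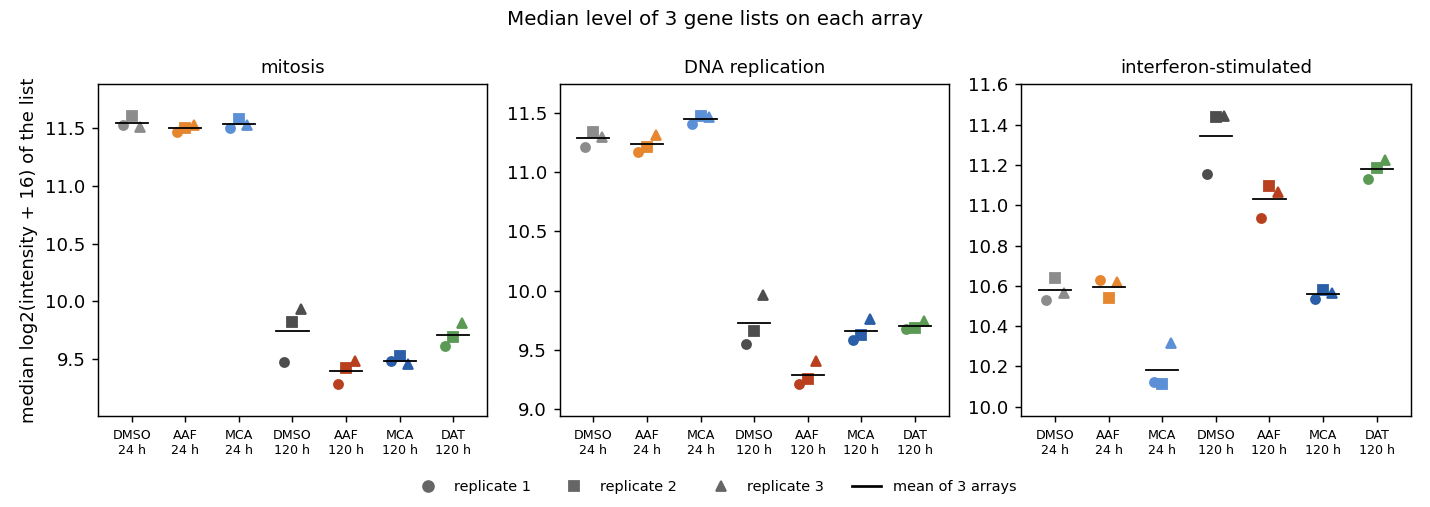
Median normalised level, log2(intensity + 16), of the tested members of 3 gene lists on each array: 7 groups on the x axis, 1 symbol per replicate, a bar for the mean of 3 arrays. The mitosis median falls from about 11.5 at 24 h to between 9.28 and 9.94 on the DMSO and AAF arrays of 120 h, and DMSO replicate 1 (9.48) lies at the top of the AAF arrays (9.28 to 9.48).

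Interferon-stimulated genes were lower with AAF at 120 h although no interferon was given. Of 42 tested list members 40 were lower, beside 48.3% of all genes tested, with a median log2 difference of -0.34. AAF arrays lay entirely below DMSO arrays for 25 of the 42, beside 5.32% of all genes. Rsad2, Oas1a, Usp18 and Rtp4 passed the test as lower, beside 0.422% of all genes tested. With the block 24 passed as lower and 1, Ifi27, as higher, beside 4.97% and 5.17% of all genes tested. At 24 h none passed in either fit, and the median was -0.01.

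Rsad2, which encodes the antiviral protein viperin, was at 1208, 1138 and 1007 with DMSO and 515, 576 and 631 with AAF at 120 h. Its log2 difference was -1.04 ± 0.14 (SE, 2.05-fold, adjusted p = 0.000325), and 2 dimmer probe sets of the gene gave -0.83 and -1.29. At 24 h it was at 474, 422 and 469 with DMSO and 475, 337 and 400 with AAF. The DMSO arrays of 120 h thus stood above all arrays of 24 h by more than the AAF arrays of 120 h did. Oas1a, a sensor of double-stranded RNA, was at 2303, 2825 and 3389 with DMSO and 1661, 1483 and 2168 with AAF (-0.73 ± 0.13, adjusted p = 0.00906). Usp18, which removes Isg15 from proteins, was at 5962, 7542 and 6871 and at 4936, 4804 and 5356 (-0.41 ± 0.09, adjusted p = 0.0337).

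Related genes outside the list also fell: Slfn8 (-0.80 ± 0.17), Ifi27l2a (-0.63 ± 0.14) and the chemokine gene Ccl5 (-0.55 ± 0.12), which was already lower on all AAF arrays at 24 h (-0.33 ± 0.12, not past the threshold). Cxcl10 (-0.60) and Ccl2 (-0.51) passed with the block alone. Rtp4, a chaperone of membrane receptors, fell by 0.42. Mx2 (-0.80) and Cmpk2 (-0.73) were low but did not pass, and Irf1 gave 0.14. The 15 tested genes of class I antigen processing had a median of 0.03, with none past the threshold in either fit. The interferon list had 1 call without AAF replicate 1 or 2 or DMSO replicate 3, and 2 without DMSO replicate 2. Its median stayed between -0.40 and -0.26 under every alternative, with median centring no member passed, and in the 12 arrays alone 1 did.

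**Figure D4:**
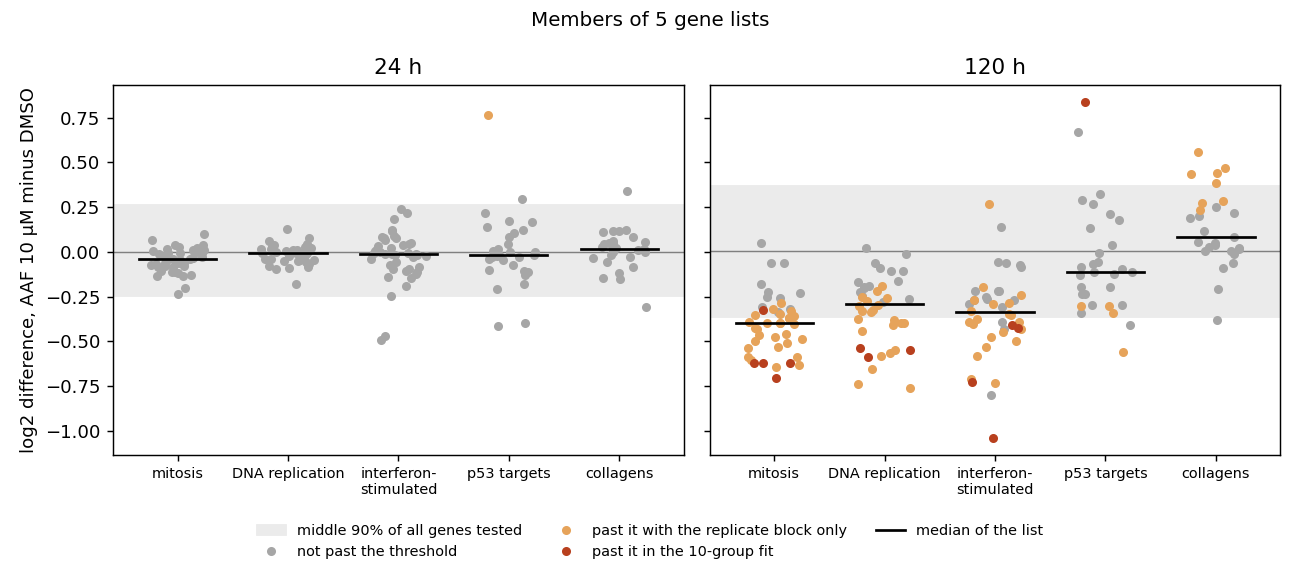
Log2 difference of AAF 10 µM minus DMSO for each tested member of 5 gene lists at 24 h (left) and 120 h (right); the bar is the list's median, the grey band the middle 90% of all genes tested, and colour shows the fit in which a gene passed. At 24 h the medians of mitosis (-0.04), replication (0.00) and interferon (-0.01) lie at 0. At 120 h they lie at -0.40, -0.29 and -0.34.

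Other large falls at 120 h were in genes outside these lists. AF067061 was at 142, 362 and 369 with DMSO and 69.3, 71.2 and 74.6 with AAF (-1.65 ± 0.31, adjusted p = 0.00906). Gm20767 (-1.53 ± 0.34), Tcstv1 (-1.18 ± 0.27), a transcript of early cleavage embryos, and Usp17la (-0.95 ± 0.14), a deubiquitinase, fell too. Usp17la was at 358, 454 and 392 with DMSO and 206, 260 and 170 with AAF (adjusted p = 0.000432). All 4 were brighter at 24 h, where none differed by more than 0.17, and Gm20767 was near background with AAF at 120 h, at 8.0, 3.3 and 15.0. Genes of these kinds belong to families of near-identical copies, so the probe sets may also read relatives.

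Of secreted proteins, Apod, a lipocalin that rises in resting fibroblasts, was at 1895, 2874 and 2853 with DMSO and 883, 963 and 1596 with AAF (-1.25 ± 0.26, adjusted p = 0.0195). At 24 h it was between 212 and 311 on the DMSO arrays and between 219 and 258 on the AAF arrays. A second, much dimmer probe set of Apod gave 0.49 at 120 h. Postn, the matrix protein periostin, was at 5039, 5599 and 4708 and at 2376, 3720 and 2458 (-0.90 ± 0.19, adjusted p = 0.0245). Igf2r, the receptor that clears insulin-like growth factor 2, fell by 0.67, where its dimmer probe set gave -0.23. Both Apod and Postn were far brighter in the controls at 120 h than at 24 h, and the AAF arrays lay between the times. The arrays of DAT at 0.2 µM for 120 h, at 1365, 1039 and 1696 for Apod and 3028, 3820 and 3557 for Postn, overlapped the AAF arrays. AAF minus DAT was -0.30 ± 0.26 for Apod and -0.31 ± 0.19 for Postn, and neither passed.

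Few genes of other lists passed. With the block, 5.17% of all genes tested passed as higher at 120 h and 4.97% as lower. No collagen or collagen-processing gene of 27 tested passed, and with the block 8 passed as higher, Col16a1 (0.56), Bmp1 (0.47), Col5a1 (0.44) and Plod3 (0.44) most. None of 8 tested genes of acute phase and inflammation was lower at 120 h (median 0.44), beside 48.3% of all genes tested. As higher, 5 of the 8 passed with the block: Chil1 (1.11), Cp (0.49), C1s1 (0.47), C1ra (0.41) and Ptx3 (0.33). Of 30 tested p53 target genes 1 rose, Ier3, and Cdkn1a, the p53-driven inhibitor of the cell cycle, differed by 0.14 at 24 h and -0.20 at 120 h. With the block 4 of the p53 list were lower: Eda2r (-0.56), Phlda3 (-0.34), Ccng1 (-0.31) and Zmat3 (-0.30). Mdm2 gave -0.03 and -0.01.

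For genes that handle aromatic amines, few differences passed. Nat2, an arylamine acetyltransferase, differed by 0.06 and 0.05. Of 15 tested genes of xenobiotic metabolism none passed. With the block at 120 h, Xdh (0.48) and Adh1 (0.58) were higher and the efflux pump gene Abcb1b (-0.73) was lower. That fit called 5.17% of all genes tested higher and 4.97% lower. Of 14 tested glutathione transferases 1 passed with the block, Gstm1 (0.25), beside 10.1% of all genes tested. All 17 tested genes of sterol synthesis were lower at 24 h, beside 49.7% of all genes tested, and none passed in either fit. Their median was -0.24, and over alternatives it ranged from -0.35 to -0.19.

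Promoters of RefSeq were found for 9230 of the genes tested. GCGTG was in 10 of 16 promoters of genes that rose at 120 h (62.5%), beside 52.2% of all tested, in 14 of 36 of genes that fell and in 22 of 36 of the mitosis list. The GAAA pair was in 16 of 31 promoters of the interferon list, beside 2.94% of all, and in 5 of 36 promoters of genes that fell. TTTGAA was in 27 of 36 promoters of the mitosis list, in 14 of 36 of genes that fell and in 0 of 16 of genes that rose, beside 11.6% of all. Windows ran from 250 bases before to 50 after the start, and both strands were searched.

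The response at 120 h was also tested against that at 24 h, at the same concentration. No gene passed (0%), while 434 had an unadjusted p under 0.05 and the smallest adjusted p was 0.0619, for Fchsd2 and Usp17la. The 120 h response of Fchsd2 exceeded that of 24 h by 0.71 and that of Usp17la lay lower by 1.07. With the block 78 genes passed (0.685%), 15 with a higher and 63 with a lower response at 120 h, Rsad2, Postn, Mcm3, Bub1 and Top2a among the lower and Ptgs2, Slc39a13 and Fchsd2 among the higher. Without DMSO replicate 1 of 120 h 2 genes passed, and without AAF replicate 2 of 120 h 1. The Cyp1a1 response was larger by 0.70 (95% limits 0.20 to 1.20, adjusted p = 0.999) and that of Cyp1b1 by 0.05 (-0.18 to 0.29) at 120 h.

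AAF was set against MCA, a polycyclic hydrocarbon and strong Ah receptor ligand, in arrays of the same approach and time. The concentrations differ, 10 µM against 20 µM at 24 h and against 0.1 µM at 120 h, so the tests compare these treatments, and they share the AAF arrays with the comparisons above. At 24 h 69 genes differed (0.606%), 40 higher and 29 lower with AAF, and 534 with the block (4.69%). At 120 h 108 differed (0.949%), 49 higher and 59 lower, and 640 with the block (5.62%). Without AAF replicate 1, 2 or 3 the 24 h count was 34, 26 or 31, and without MCA replicate 2 or 3 it was 29 or 42. The 120 h count was 54 or 68 without AAF replicate 1 or 2, and 63 or 64 without MCA replicate 2 or 3.

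The Ah receptor genes were higher with MCA. Normalised Cyp1a1 was 9.80, 9.32 and 9.83 with AAF and 13.18, 13.12 and 13.25 with MCA at 120 h, beside 5.50, 5.85 and 6.14 with DMSO. The AAF arrays thus lay between the controls and MCA, at a log2 difference of -3.53 (95% limits -3.89 to -3.18, adjusted p = 2.94e-13) from MCA. At 24 h that difference was -1.92 ± 0.17 (adjusted p = 3.18e-07). Cyp1b1 (-0.62), Ptgs2 (-1.21), Gpc1 (-1.05), Tiparp (-1.29) and Nqo1 (-0.95) were also lower with AAF than with MCA at 120 h, each past the threshold.

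Several interferon genes were lower with AAF than with DMSO but higher than with MCA. Normalised Rsad2 was 10.26, 10.17 and 9.98 with DMSO, 8.88, 9.15 and 9.26 with AAF and 8.41, 8.05 and 8.24 with MCA. The 3 groups were separate, and AAF exceeded MCA by 0.86 ± 0.14 (adjusted p = 0.000908). Ifi27l2a (0.84), Rtp4 (0.69), Usp18 (0.62) and Oas1a (0.60) were higher with AAF than with MCA by the same test, as were AF067061 (1.89), Ccl5 (0.77) and Postn (0.77). By the test, 9 of the 42 interferon genes were higher with AAF than with MCA at 120 h and none lower. Over all 11384 genes tested, 49 were higher and 59 lower. With the block 15 of the 42 were higher and 2 lower, beside 273 and 367 of all genes tested. By sign alone 9 of the 42 were lower, beside 6262 of the 11384. At 24 h 7 of the 42 were higher and none lower, beside 40 and 29 of all genes tested. With the block it was 17 and 1, beside 264 and 270, although none of the list passed against DMSO at that time. At 120 h none of the list passed against MCA with median centring, and 1 passed with the arrays of both groups alone.

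Replication genes went the other way. Normalised Mcm3 was 10.93, 11.07 and 11.23 with DMSO, 10.46, 10.51 and 10.65 with AAF and 11.08, 11.05 and 10.95 with MCA. AAF arrays lay below all 6 others, and AAF was lower than MCA by 0.49 ± 0.08 (adjusted p = 0.000655). Clspn (-0.67), Rad54l (-0.65), Mcm10 (-0.64), Dck (-0.75), Dtl (-0.59) and Top2a (-0.47) were lower with AAF than with MCA too. All 40 tested replication genes were lower with AAF than with MCA, beside 6262 of all 11384 genes tested. Their median was -0.26, beside -0.02. As lower, 2 of the 40 passed, or 16 with the block, beside 59 and 367 of all genes tested. None of the 40 passed with median centring, with the mean of probe sets or with the arrays of both groups alone. The mitosis list had a median of -0.10 against MCA at 120 h. In it 1 gene passed as lower, or 9 with the block, beside the same 59 and 367. Cdh13, the anchored cadherin T-cadherin, was higher with AAF than with DMSO (0.42) and than with MCA (0.81).

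**Figure D5:**
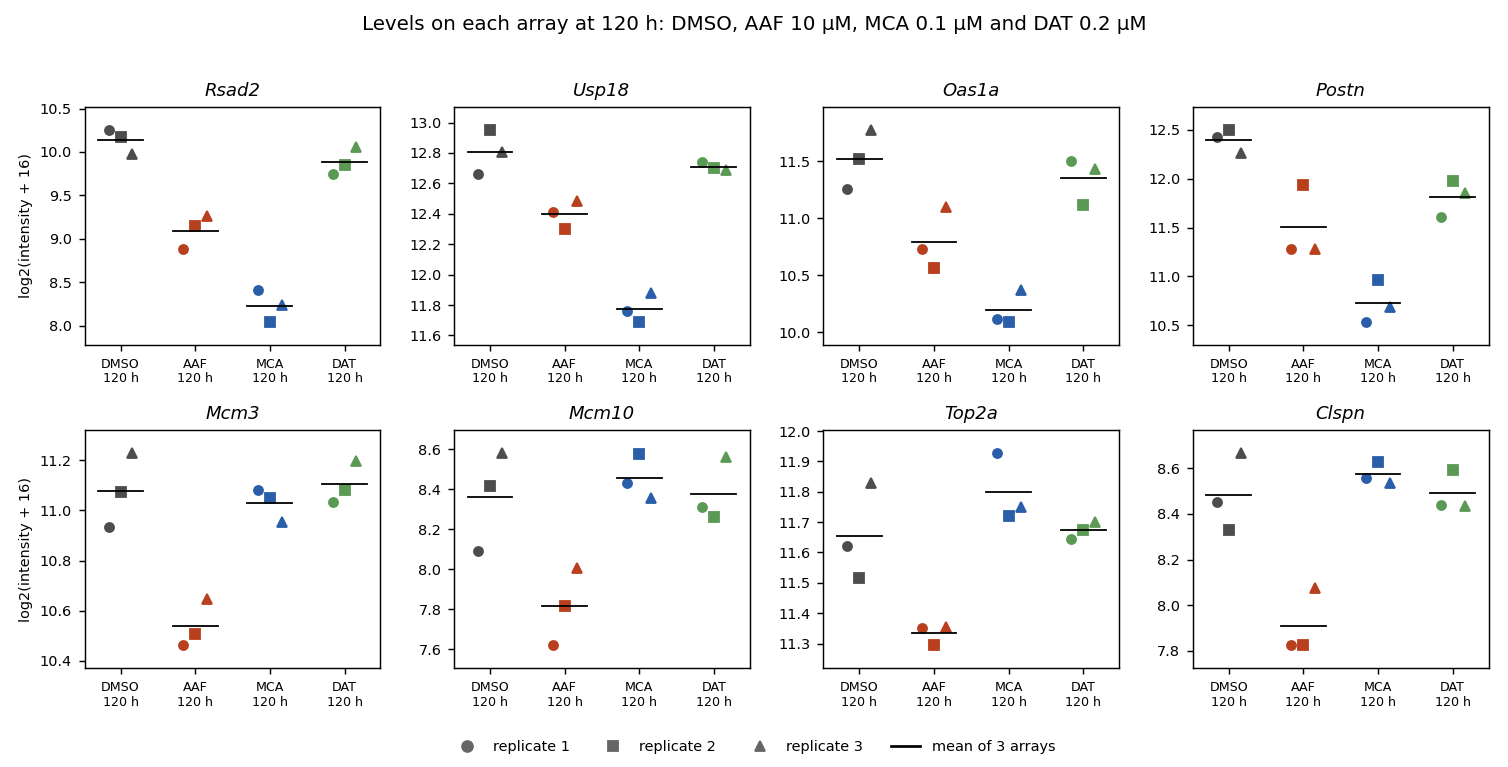
Normalised level, log2(intensity + 16), of 8 genes on each array of 120 h: DMSO, AAF 10 µM, MCA 0.1 µM and DAT 0.2 µM on the x axis, 1 symbol per replicate, a bar for the mean of 3 arrays. For Rsad2, Usp18, Oas1a and Postn the AAF arrays lie between DMSO and MCA. For Mcm3, Mcm10, Top2a and Clspn they lie below all arrays of the other 3 groups.

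DAT at 0.2 µM, an aromatic amine of a single ring, gave a further set of 120 h arrays. From these, AAF differed in 15 genes (0.132%), 5 higher and 10 lower, and in 310 with the block (2.72%). The higher were Cyp1a1 (3.81), Gpc1 (0.94), Slc15a2 (0.85), Cyp1b1 (0.81) and Fchsd2 (0.46). The lower were Rsad2 (-0.79), Arhgap11a (-0.72), Usp17la (-0.66), Bub1b (-0.63), Cenpi (-0.59), Clspn (-0.58), Mcm10 (-0.56), Mcm3 (-0.56), Me2 (-0.54) and Top2a (-0.34). The comparison shares the AAF arrays with those above. Of the 70 genes called against DMSO at 120 h, 12 passed against DAT, and all 70 kept their direction. The median log2 difference of the 22 higher genes was 0.66 from DMSO and 0.39 from DAT. That of the 48 lower genes was -0.62 and -0.46. DAT itself differed from DMSO in 0 genes by the test. The count of 15 rested on single arrays: it was 3, 7 and 44 without AAF replicate 1, 2 and 3, and 5, 4 and 3 without DAT replicate 1, 2 and 3.

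The study's first approach had given AAF at 25 µM with its own controls, on arrays scaled differently. There Cyp1a1 differed from DMSO by 0.71 ± 0.11 (SE) at 24 h and 2.01 ± 0.11 at 120 h, Cyp1b1 by 0.61 ± 0.06 and 0.89 ± 0.06, and Ptgs2 by -0.07 ± 0.10 and 0.78 ± 0.10. At 120 h Mcm3 (0.22 ± 0.11), Top2a (0.13 ± 0.06), Mcm5 (0.21), Mcm10 (0.14), Spc25 (0.29), Cenpe (0.17), Bub1 (0.15) and Tpx2 (0.05) were higher than DMSO there, and none passed. These are the members of the mitosis and replication lists that passed at 10 µM, where all were lower. Rsad2 (-0.20 ± 0.14) and Postn (0.01 ± 0.18) did not pass at 120 h either, while Rsad2 (-0.61 ± 0.14) and Postn (0.83 ± 0.18) passed at 24 h. Concentrations and array sets differ, and the values are given side by side without a test.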

How the data were processed

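The deposited values are 1 linear intensity per probe set and array. Per the labels' protocols, 5 µg of RNA was labelled with biotin; the submitters' processing notes name GCOS, and how probes were summarized is not given in the sources used here. Trimmed at both ends, the mean of the deposited intensities was 500 on all 30 arrays of the second approach and 152.9 to 187.6 on those of the first, so the sets were not tested against each other. Of 45101 probe sets, 34958 had 1 symbol in the platform table, 932 had several and 9211 were unlisted (204 symbols had no RefSeq match). A gene was tested if its brightest probe set lay above its array's median on at least 3 arrays. Fits used limma 3.58.1 in R 4.3.3 with a mean-variance trend and 20 residual degrees of freedom. The fit without the block was also run on simulated arrays. Those were drawn independently, so that run does not cover deviations shared by same-numbered arrays. The number of arrays limits precision. Named genes were the 15 largest rises and falls past the threshold without overlap, list members past it, and, at 24 h, up to 10 separated genes each way at unadjusted p under 0.001. The members and lists were chosen with earlier results of these data known. Labels do not say what a replicate number shares: deviations of same-numbered AAF and DMSO arrays correlated at 0.29 to 0.46 (24 h) and 0.26 to 0.61 (120 h), so the pairing comes from the data. Alternatives covered normalization, filter, pseudocount, probe sets, fit and leaving out arrays.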

Additional observations from a re-analysis of the deposited data

How the results depend on the processing

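Numbers of genes past the threshold depended on the fit more than their directions did. They are given in the order 24 h, 120 h, difference of the responses, AAF minus MCA at 24 h and at 120 h, and AAF minus DAT. They were 2, 70, 0, 69, 108 and 15 in the main analysis, 11, 1154, 78, 534, 640 and 310 with the replicate block, and 14, 401, 2, 321, 324 and 110 in 1 fit of all 60 arrays. With median centring they were 1, 3, 0, 7, 15 and 1. With only the arrays of the groups compared they were 3, 11, 0, 2, 7 and 2, where fewer arrays give the spread. The mean of a gene's probe sets gave 4, 34, 70 and 3 at 24 h, at 120 h, against MCA at 120 h and against DAT. Without normalization 4 passed at 24 h and 4 against DAT. Against DAT, quantile normalisation over 60 arrays gave 8, a pseudocount of 64 gave 5 and no filter gave 6. Without the trend 2 genes passed for the difference of the responses. The 12 arrays with the replicate block, an alternative chosen after seeing the data, gave 10, 853 and 4 for the first 3. Leaving out 1 array gave 2 at 24 h, 8 to 110 at 120 h, 0 to 2 for the difference, 26 to 51 and 54 to 149 against MCA, and 3 to 44 against DAT. At 120 h the share of calls that were higher was 31.4%, beside 51.0% with the block, 46.1% in the fit of 60 arrays, 41.2% with the mean of probe sets and 100% of 3 with median centring. Kif5c at 24 h changed sign with the mean of probe sets (0.0093), where its dimmer probe sets differ in direction. Other causes were not tested. The dimmest genes named, such as Gm20767, lie near background, which limits their fold.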
